A study of Mus musculus with 6 samples.

Results

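The genes described here are 10 transcripts of the chemokine and cytokine system in growing 3T3-L1 cells: the chemokine Cxcl12 and its atypical receptor Ackr3, the CC chemokines Ccl2 and Ccl7, the neutrophil-attracting chemokines Cxcl1 and Cxcl5, the growth factor Csf1, the gp130 cytokines Il6 and Lif, and the interleukin-33 receptor Il1rl1. They were chosen by name, with earlier results of these data known. All 10 are among the 24421 genes of the deposited count table. 3T3-L1 is a mouse embryonic fibroblast line that can be induced to become fat cells. Here the cells were undifferentiated preadipocytes kept below confluence in serum-containing medium. The comparison was between 3 wild-type (WT) libraries and 3 libraries of Ube3d knockout cells of the same line, with no other agent in either genotype. UBE3D is an E3 ubiquitin ligase. The labels leave unsaid whether 1 clone gave all knockout samples. The samples are titled as biological replicates with no word on separate cultures, so p-values measure only the spread between these libraries.

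Chemokines are small secreted proteins that guide cells along a concentration gradient through G-protein-coupled receptors. In fat tissue, stromal preadipocytes and fibroblasts are a known source of CXCL12, which retains CXCR4-bearing cells, and of CCL2 and CCL7, which draw in CCR2-bearing monocytes. CSF1 keeps macrophages alive through CSF1R, while IL-6 and LIF signal through the shared chain gp130 to JAK kinases and STAT3. NF-kB is a classical inducer of Ccl2, Cxcl1 and Il6.

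Upstream sequence is shown first, for the gene that changed most (Cxcl12) and for the 3 genes with a match to the NF-kB consensus, of which Cxcl1 fell, Csf1 rose and Il6 was barely detected. RefSeq promoter windows (GRCm38.p6) were found for 7 of the 10 genes, as 8 windows, and Ccl2, Ccl7 and Cxcl5 had no entry. The 250 bases before each start site were searched on both strands for the NF-kB consensus, the AP-1 site TGANTCA, the STAT site TTCNNNGAA, the GC box GGGCGG and the TATA box TATAAA. The windows are printed 5′ to 3′ in the direction of transcription, with every match in capitals.
Cxcl12, chr6:117168285-117168534 (+): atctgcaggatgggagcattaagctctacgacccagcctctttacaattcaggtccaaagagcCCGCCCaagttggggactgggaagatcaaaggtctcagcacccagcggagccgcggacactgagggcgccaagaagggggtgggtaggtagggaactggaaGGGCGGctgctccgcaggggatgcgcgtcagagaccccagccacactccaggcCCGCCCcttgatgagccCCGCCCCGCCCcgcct
Cxcl1, chr5:90890995-90891244 (+): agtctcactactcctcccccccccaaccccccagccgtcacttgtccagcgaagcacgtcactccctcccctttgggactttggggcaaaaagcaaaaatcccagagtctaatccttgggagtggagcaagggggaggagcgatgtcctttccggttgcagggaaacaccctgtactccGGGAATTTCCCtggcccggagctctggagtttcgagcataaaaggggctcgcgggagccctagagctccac
Csf1, chr3:107760470-107760719 (-): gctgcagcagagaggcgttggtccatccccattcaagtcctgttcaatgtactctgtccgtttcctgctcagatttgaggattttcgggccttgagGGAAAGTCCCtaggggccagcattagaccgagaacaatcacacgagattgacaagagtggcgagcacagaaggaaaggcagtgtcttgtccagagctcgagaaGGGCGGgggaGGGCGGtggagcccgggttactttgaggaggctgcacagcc
Il6, chr5:30012864-30013113 (+): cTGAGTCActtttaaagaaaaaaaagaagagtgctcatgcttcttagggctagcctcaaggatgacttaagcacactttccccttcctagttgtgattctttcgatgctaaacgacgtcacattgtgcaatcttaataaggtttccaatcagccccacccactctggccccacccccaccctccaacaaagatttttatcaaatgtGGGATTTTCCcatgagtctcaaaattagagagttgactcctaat

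The capitals in Cxcl12 are 5 GC boxes, 1 of them reading GGGCGG and 4 its reverse complement CCGCCC, in a window of 64.4% GC. Those in Cxcl1 are overlapping NF-kB matches on either strand, whose first bases lie 71 and 70 bases before the start site. In Csf1 they are an NF-kB match on the other strand at 154 bases before the start, and GC boxes at 51 and 41 bases. In Il6 they are the AP-1 site TGAGTCA at 249 bases and the NF-kB match GGGATTTTCC at 44 bases before the start. An NF-kB match stood in 3 of the 8 windows and in 3.90% of 32851 RefSeq windows of the same length. AP-1 sites stood in 2 of the 8 (Il6 and Lif) and in 6.75% of all windows, and GC boxes in 4 of the 8 and 32.7%. A TATA box stood in 1 of the 8 (Ackr3) and 12.4%, and a STAT site in 0 of the 8 and 7.02%. A match describes the letters only.

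Total gene counts ranged from 23767181 to 29389480 per library. Ube3d, listed under its older symbol Ube2cbp, had 145, 229 and 173 counts in WT and 56, 43 and 53 in the knockout. Its level fell 3.62-fold (log2 −1.86, SE 0.15, edgeR adjusted p = 6.58e-18), and the labels do not name the deleted part of the gene. Levels below are counts-per-million values (CPM), scaled by library size and edgeR's TMM factor, with mean ± SD over n = 3 libraries. Fold changes compare the knockout with WT, and the SE is on the log2 scale. A gene was called at an edgeR quasi-likelihood adjusted p under 0.05.

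Fibroblast and preadipocyte markers were abundant, with a summed level over 12 genes of 14152 to 14621 CPM in WT and 11707 to 12082 CPM in the knockout, and Vim the highest. Of the 11 tested, 9 were lower and 1, Dlk1, was higher (2.17-fold, SE 0.031). Over all tested genes of the comparison, 31.2% were lower and 30.3% higher. Macrophage and leukocyte markers summed over 12 genes to 13.8 to 14.9 CPM in WT and 14.7 to 15.6 CPM in the knockout, with Cd14 the highest (6 tested, 2 higher, 1 lower), and Adgre1, Tyrobp and C1qa had 0 counts in every library. Mast cell markers, of interest for Il1rl1, summed to at most 0.178 CPM over 6 genes, and 5 of them had 0 counts everywhere. Endothelial markers summed to 0.600 to 1.08 CPM in WT and 1.45 to 2.42 CPM in the knockout, where Vwf alone was tested and higher. Epithelial markers, of which 0 were tested, summed to at most 0.707 CPM. The part of these marker changes in the results below was not tested. In RNA from bulk cells, fewer cells of a kind and less RNA per cell cannot be told apart.

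Of the 10 genes, 9 had enough counts to test, and Il6 did not. Among the 9, 5 were called lower (Cxcl12, Ccl2, Ccl7, Cxcl1 and Cxcl5), 3 higher (Ackr3, Csf1 and Lif), and Il1rl1 was not called. Over all 12947 tested genes, 61.4% were called, 30.3% higher and 31.2% lower, so a call by itself was common in this comparison. The median log2 fold change was −0.45 over the 9 genes and 0.0041 over all tested genes. WT and knockout libraries did not overlap for 7 of the 9, where 64.3% of all tested genes did not overlap. A change of at least 2-fold was called for 2 of the 9, Cxcl12 and Ackr3, against 7.7% of all tested genes. Since the genes were chosen with earlier results known, these counts describe the set only.

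**Figure D1:**
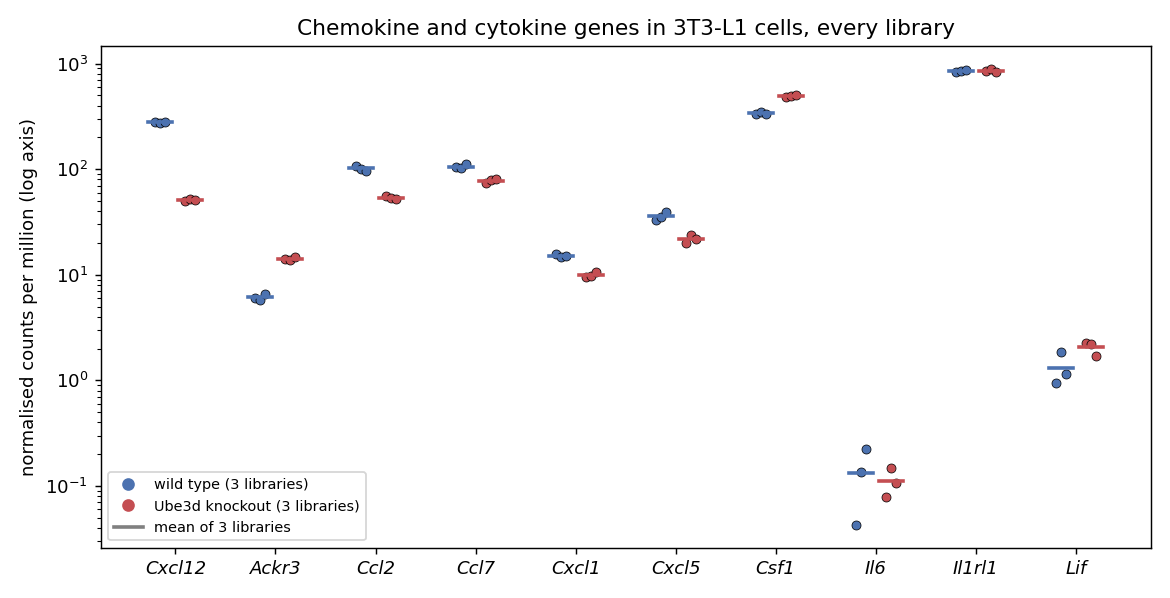
Level of each of the 10 genes in every library, in normalised CPM on a log axis. Points are libraries, coloured by genotype, and bars are means of 3. The genotypes separate for Cxcl12, Ackr3, Ccl2, Ccl7, Cxcl1, Cxcl5 and Csf1, and overlap for Il6, Il1rl1 and Lif.

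Cxcl12, also called SDF-1, had the largest change of the 10 genes. It lies on chromosome 6, from 117168535 to 117181368 on the plus strand of GRCm38, with 4 merged exons. No exon of the 10 genes overlaps an exon of another listed gene. Its level was 280.1, 276 and 278 CPM in the WT libraries and 49.9, 52.2 and 51.2 CPM in the knockout libraries. Each genotype was tight, and a wide gap lay between them. The fall was 5.45-fold (log2 −2.44, SE 0.033, edgeR adjusted p = 7.86e-63). The nearest tested genes, Zfp422 at 539.5 kb before it and Zfp637 at 659.9 kb after it, were not called (log2 0.057 and −0.097). The median log2 change on chromosome 6 was −0.095.

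Ackr3, formerly CXCR7, encodes a receptor that binds and internalises CXCL12 without classical G-protein signalling, and it moved the opposite way. The gene is on chromosome 1, from 90203980 to 90215722 on the plus strand. It was at 6.08, 5.82 and 6.58 CPM in WT and 14.1, 13.9 and 14.6 CPM in the knockout. All 3 knockout libraries lay above every WT library. The rise was 2.31-fold (log2 1.21, SE 0.093, edgeR adjusted p = 9.03e-19), on 491 counts in WT and 1148 in the knockout. Cxcr4, the signalling receptor of CXCL12, had 0 counts in all 6 libraries. For counting error only, 3 counts allow a level of up to 0.101 to 0.128 CPM, depending on the library.

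The Ackr3 to Cxcl12 ratio was compared within each library, where library scaling cancels. Per kb of exon it was 0.0670, 0.0651 and 0.0729 in WT and 0.874, 0.823 and 0.879 in the knockout. This was a 12.6-fold higher ratio in the knockout, with no overlap between genotypes. The exact two-sided permutation p was 0.1 (0.15 adjusted over the 3 ratios compared), and 0.1 is the smallest that 3 libraries against 3 can give. Per kb, the scavenger transcript thus came close to that of its ligand in the knockout. This closeness depends on the listed exon lengths, 2319 bases for Ackr3 and 7161 for Cxcl12. Which transcript forms were present was not tested. By plain counts the ratio was 0.0211 to 0.0236 in WT and 0.267 to 0.285 in the knockout.

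Ccl2 encodes MCP-1, the main CCR2 ligand, and Ccl7 encodes MCP-3, which binds CCR2 among other receptors. The genes are close neighbours on the plus strand of chromosome 11, Ccl2 from 82035577 to 82037452 and Ccl7 from 82045712 to 82047523, with 8.26 kb between them. Ccl2 was at 107, 101 and 96.4 CPM in WT and 55.4, 53.8 and 52.0 CPM in the knockout. It fell 1.89-fold (log2 −0.92, SE 0.041, edgeR adjusted p = 3.70e-31), and every knockout library was below every WT library. Ccl7 was at 104, 102 and 112 CPM in WT and 73.2, 78.5 and 80.7 CPM in the knockout. Its fall was smaller, at 1.37-fold (log2 −0.45, SE 0.039, edgeR adjusted p = 1.79e-16), again without overlap.

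The count ratio of Ccl7 to Ccl2 was 0.970, 1.01 and 1.16 in WT and 1.32, 1.46 and 1.55 in the knockout. It was 1.38-fold higher in the knockout, and the genotypes did not overlap (exact two-sided permutation p = 0.1, adjusted 0.15). The transcripts of the pair share an exact stretch of at most 23 bases in the GENCODE M21 set.

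The other chemokine genes of this chromosome 11 cluster did not all follow. Ccl8, which encodes MCP-2 and starts 79.6 kb from Ccl2, was at 2.18, 2.46 and 2.43 CPM in WT and 6.05, 7.005 and 6.58 CPM in the knockout. It rose 2.77-fold (log2 1.47, SE 0.14, edgeR adjusted p = 8.49e-15), with every knockout library above every WT library, and stayed far below Ccl2 and Ccl7. Ccl11, the eotaxin gene, was low and not called (log2 0.28, edgeR adjusted p = 0.550). Ccl12 and Ccl1 had at most 6 counts in any library and were not tested. The abundant pair of the cluster fell while the scarcer Ccl8 rose.

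**Figure D2:**
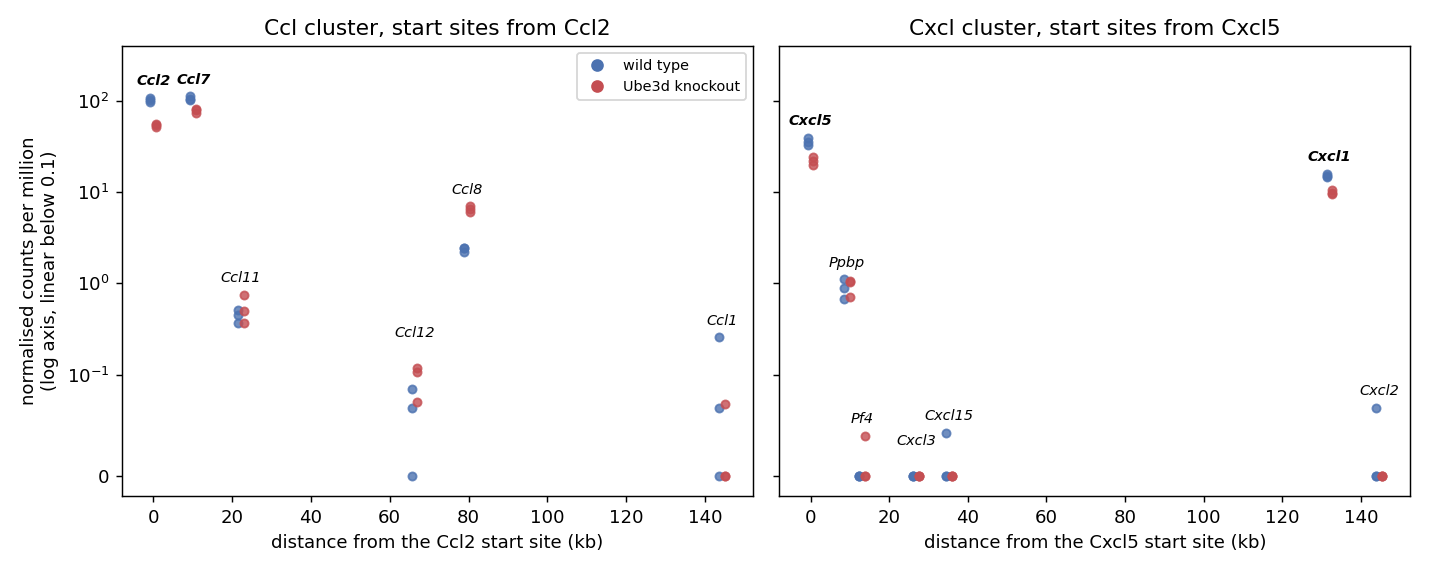
Chemokine genes of the chromosome 11 cluster (left) and the chromosome 5 cluster (right) by distance of the start site from that of Ccl2 or Cxcl5, in kb. Points are libraries in normalised CPM, on a log axis that is linear below 0.1. Ccl2, Ccl7, Cxcl5 and Cxcl1, in bold, are lower in the knockout, Ccl8 is higher, and the other cluster genes are at most 1.11 CPM.

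Cxcl1 (KC) and Cxcl5 (LIX) encode chemokines that attract neutrophils through CXCR2. Both lie on the plus strand of chromosome 5, Cxcl5 from 90759298 to 90761625 and Cxcl1 from 90891245 to 90893115. Cxcl1 was at 15.8, 14.6 and 15.1 CPM in WT and 9.47, 9.79 and 10.6 CPM in the knockout. It fell 1.52-fold (log2 −0.60, SE 0.083, edgeR adjusted p = 2.70e-09). Cxcl5 was at 32.7, 35.4 and 39.2 CPM in WT and 20.04, 23.99 and 21.8 CPM in the knockout. It fell 1.63-fold (log2 −0.70, SE 0.063, edgeR adjusted p = 4.59e-15). Neither gene overlapped between genotypes.

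The count ratio of Cxcl5 to Cxcl1 ran from 2.07 to 2.61 in WT and from 2.05 to 2.45 in the knockout, and these ranges overlapped. The log2 ratio differed by −0.098, which did not exceed the spread between libraries (exact two-sided permutation p = 0.6, adjusted 0.6). The pair fell on a chromosome where the median log2 change was 0.19, with 467 of 804 tested genes higher and 86 lower. Ppbp, which starts 9.22 kb from Cxcl5, was not called (log2 0.045, edgeR adjusted p = 0.903). Cxcl2, another CXCR2 ligand gene, had 2 counts in WT and 0 in the knockout, and Cxcl3 had 0 in all libraries. Cxcl1 shares exact stretches of at most 23 bases with either. The receptor Cxcr2 had 1 count in WT and 2 in the knockout, and Ccr2, the receptor of CCL2, had 1 and 0.

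Summed over 37 chemokine ligand genes, per kb of exon, the level was 364, 354 and 365 CPM per kb in WT and 223, 232 and 230.5 in the knockout. The sum was 1.58-fold lower in the knockout, with no overlap (exact permutation p = 0.1). Ccl2 and Ccl7 made up most of it in either genotype. These shares depend on the listed exon lengths, 806 bases for Ccl2, 799 for Ccl7 and 7161 for Cxcl12. By mean CPM, Cxcl12 (278) was above Ccl2 (102) and Ccl7 (106) in WT. In the knockout it was lowest of the 3, at 51.1 against 53.7 and 77.5. The share of Ccl7 was 36.7% ± 1.44 in WT and 42.4% ± 1.35 in the knockout, and that of Ccl2 was 34.9% ± 1.97 and 29.2% ± 1.47. Cxcl12 held 10.8% ± 0.132 in WT and 3.12% ± 0.0191 in the knockout. Cxcl5 held 5.98% ± 0.533 and 5.80% ± 0.416, and Cxcl1 4.42% ± 0.133 and 4.599% ± 0.231. Ccl8 held 1.28% ± 0.0941 in WT and 5.61% ± 0.301 in the knockout, and Ccl25 1.24% ± 0.193 and 4.21% ± 0.217. The mean ± SD ranges of the Cxcl5 and Cxcl1 shares overlapped between genotypes, and those of Cxcl12, Ccl8 and Ccl25 did not.

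**Figure D3:**
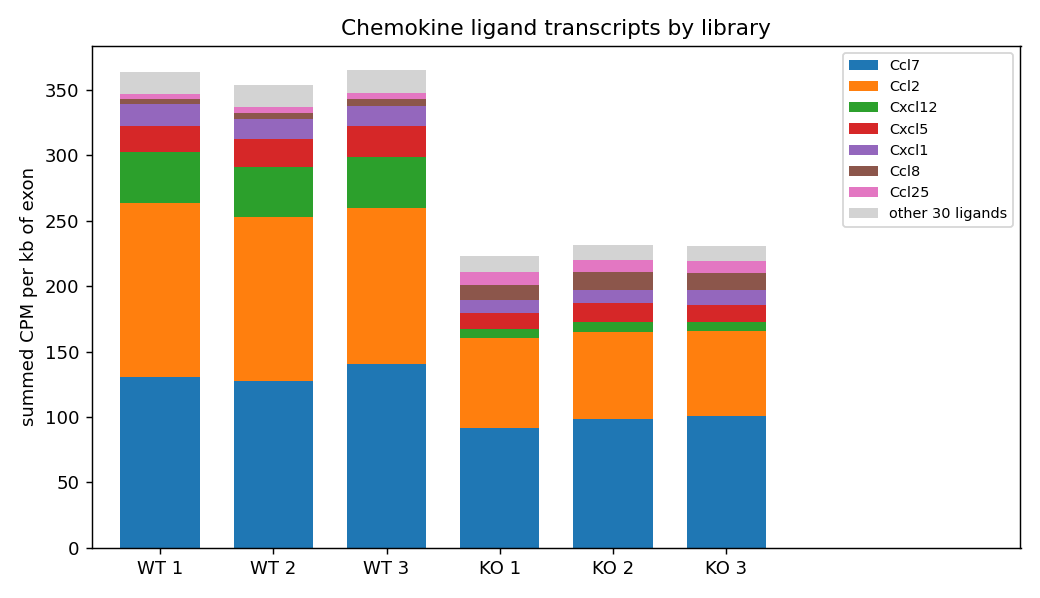
Summed level of 37 chemokine ligand genes in each library, in CPM per kb of exon, stacked by gene. The WT bars reach 364, 354 and 365 and the knockout bars 223, 232 and 230.5, and the Cxcl12 band goes from 10.8% ± 0.132 to 3.12% ± 0.0191 of the bar (mean ± SD).

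Csf1 encodes macrophage colony-stimulating factor and lies on the minus strand of chromosome 3, from 107741048 to 107760469. It was at 331, 349 and 333 CPM in WT and 479.5, 497 and 503 CPM in the knockout, so every knockout library was higher. The rise was 1.46-fold (log2 0.55, SE 0.03, edgeR adjusted p = 3.48e-26). Chromosome 3 had a median log2 change of 0.30, with 450 of 643 tested genes higher and 60 lower, and the part of this in the rise of Csf1 was not tested. Of its nearest tested genes, Ahcyl1 at 44.5 kb before it was not called (log2 0.0085), and Eps8l3 at 117 kb after it was higher (log2 0.76, SE 0.13, edgeR adjusted p = 7.63e-07). Il34, which encodes the other ligand of CSF1R, rose 1.97-fold (SE 0.12, edgeR adjusted p = 3.25e-11), from 4.49 ± 0.585 to 8.85 ± 0.933 CPM. Per kb of exon, Csf1 made up 96.9% ± 0.359 of the transcripts of both ligands in WT and 95.9% ± 0.504 in the knockout. The receptor gene Csf1r was low and not called (log2 0.0041, edgeR adjusted p = 0.984).

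**Figure D4:**
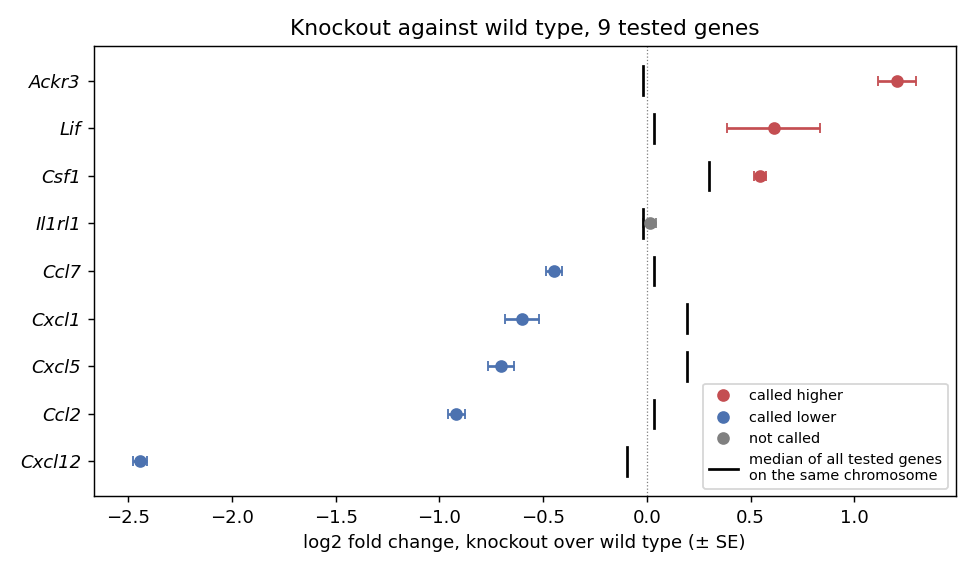
Log2 fold change of the 9 tested genes, knockout over WT, with SE bars. Black ticks give the median of all tested genes on the same chromosome. Cxcl12 lies farthest below 0 at −2.44 and Ackr3 farthest above at 1.21, while Csf1 at 0.55 sits on a chromosome with a median of 0.30.

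Lif, leukemia inhibitory factor, was scarce. It had 22, 55 and 31 counts in WT and 58, 60 and 48 in the knockout, or 0.942, 1.85 and 1.16 against 2.28, 2.20 and 1.71 CPM. The genotypes overlapped, since WT replicate 2 was above knockout replicate 3. The gene, on the plus strand of chromosome 11 from 4257568 to 4272514, was called higher at 1.53-fold (log2 0.61, SE 0.23, edgeR adjusted p = 0.0160). DESeq2 did not call it (log2 0.63, adjusted p = 0.0549). The edgeR call was also lost without WT replicate 1 (log2 0.43, adjusted p = 0.117), WT replicate 3 (0.51, adjusted p = 0.0759), knockout replicate 1 (0.54, adjusted p = 0.0734) or knockout replicate 2 (0.56, adjusted p = 0.0573). Without WT replicate 2 the edgeR value was log2 0.96, adjusted p = 0.00144, and without knockout replicate 3 it was 0.73, adjusted p = 0.0101.

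Il6, on the plus strand of chromosome 5 from 30013161 to 30019968, encodes the cytokine of the acute-phase response. It had 1, 4 and 6 counts in WT and 2, 4 and 3 in the knockout, so the genotypes overlapped. On 11 against 9 counts the knockout to WT ratio was 0.808, with an exact 95% binomial interval of 0.296 to 2.15 that covers counting error only. A difference in Il6 was not detectable at this depth. Il11, another gp130 cytokine gene, rose 1.75-fold (SE 0.10, edgeR adjusted p = 1.79e-10), from 5.79 ± 0.195 to 10.2 ± 0.411 CPM.

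Il1rl1 encodes ST2, the receptor of IL-33, whose soluble form acts as a decoy. On chromosome 1 from 40429570 to 40465414, plus strand, it had 12 merged exons. Its level was 827, 856 and 871 CPM in WT and 851, 893 and 832 CPM in the knockout. The ranges overlapped, and the gene was not called (log2 0.013, SE 0.03, edgeR adjusted p = 0.723). An approximate 95% interval of its log2 change was −0.045 to 0.071. A change of the size of that in Ccl7, the smallest among the called chemokines of the set, lay outside this interval. RefSeq gives Il1rl1 start sites 10.1 kb apart, and gene counts do not tell the membrane-bound from the soluble transcript. Its partner chain Il1rap fell 1.48-fold (SE 0.043, edgeR adjusted p = 5.18e-19), from 75.9 ± 4.396 to 51.1 ± 1.58 CPM.

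Per kb of exon, Ccl7 (133 ± 6.75 CPM per kb), Ccl2 (126 ± 6.79) and Il1rl1 (119.9 ± 3.16) were the most abundant in WT, and the mean ± SD range of Ccl2 overlapped that of either neighbour. Csf1 (76.4 ± 2.21 CPM per kb), Cxcl12 (38.9 ± 0.256), Cxcl5 (21.6 ± 1.99), Cxcl1 (16.0 ± 0.635) and Ackr3 (2.66 ± 0.164) followed, each apart from the next. Lif (0.304 ± 0.110 CPM per kb) and Il6 (0.123 ± 0.0834) came last, with overlapping ranges. In the knockout, Il1rl1 (121 ± 4.37 CPM per kb) and Csf1 (112 ± 2.75) stood above Ccl7 (97.0 ± 4.80) and Ccl2 (66.6 ± 2.12). Cxcl5 (13.3 ± 1.19 CPM per kb) and Cxcl1 (10.5 ± 0.637) exceeded Cxcl12 (7.13 ± 0.160), which was next to Ackr3 (6.12 ± 0.153). Lif (0.475 ± 0.0713 CPM per kb) and Il6 (0.102 ± 0.0315) were again last.

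Among 8 receptor chains of these and of related cytokines, 5 were lower and 1 was higher (median log2 −0.20, against 0.0041 over all tested genes). The shares over all tested genes were 31.2% lower and 30.3% higher. Of the 5 that serve products of the 10 genes, Lifr and Il1rap were lower, Il6st was higher, and Csf1r and Il6ra were not called. Lifr, the LIF receptor, fell 2.58-fold (SE 0.079, edgeR adjusted p = 6.10e-25), from 21.3 ± 0.386 to 8.27 ± 0.474 CPM. Osmr, the oncostatin M receptor chain, fell 1.90-fold (SE 0.044, edgeR adjusted p = 1.82e-29), from 74.8 ± 1.86 to 39.3 ± 1.56 CPM. Il1r1, the receptor of interleukin-1, fell 1.13-fold (SE 0.038), and Il11ra1, that of interleukin-11, 1.17-fold (SE 0.068). The shared gp130 chain gene Il6st rose 1.08-fold (SE 0.03), from 230.0 ± 2.75 to 248 ± 4.11 CPM, and Il6ra was not called (log2 0.16, edgeR adjusted p = 0.0982).

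Of 11 JAK-STAT3 pathway genes, 5 were lower and 3 higher (median log2 −0.086). For comparison, 61.4% of all tested genes were called in either direction. Stat3 fell 1.51-fold (SE 0.036), from 129.6 ± 4.10 to 85.7 ± 3.32 CPM, and the kinase gene Jak1 1.32-fold (SE 0.031). Pim1, a kinase gene that STAT3 can induce, fell 3.82-fold (SE 0.14), from 7.52 ± 0.357 to 1.98 ± 0.286 CPM. Socs3, the feedback inhibitor of gp130 signalling, fell 1.23-fold (SE 0.064), while Socs1 rose 1.97-fold (SE 0.091). The edgeR adjusted p was at most 4.95e-05 for these 5 genes.

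The genes of the NF-kB system went both ways. Of 20 subunits and feedback targets, 19 were tested, 9 were higher and 4 lower (median log2 0.081). Over all tested genes, 61.4% were called, 30.3% higher and 31.2% lower. Nfkbia, the inhibitor IkB-alpha that NF-kB induces, rose 1.61-fold (SE 0.046), from 39.8 ± 0.763 to 64.0 ± 2.57 CPM. Nfkb2, a subunit, rose 1.28-fold (SE 0.032) and Tnfaip2, a target, 1.39-fold (SE 0.031). Tnfaip3, which encodes the signal-ending enzyme A20, fell 1.98-fold (SE 0.087), from 14.8 ± 0.284 to 7.502 ± 0.0926 CPM. The edgeR adjusted p was at most 1.89e-15 for these 4 genes.

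Several of these cytokine mRNAs are known to be unstable, and RNA-binding proteins control their decay. Of 9 such factors, 4 were higher and 3 lower (median log2 0.12), where 61.4% of all tested genes were called. Zfp36l1, a decay activator, rose 1.40-fold (SE 0.034, edgeR adjusted p = 4.74e-21), from 99.9 ± 2.37 to 139.9 ± 1.57 CPM. Elavl1, which encodes the stabilising protein HuR, fell 1.20-fold (SE 0.032, edgeR adjusted p = 7.91e-11), from 158 ± 5.83 to 132 ± 3.21 CPM. Khsrp, which encodes a decay-promoting protein, also fell, 1.12-fold (SE 0.03, edgeR adjusted p = 1.34e-06). Zfp36l2, the most abundant of the list and a decay activator, rose 1.09-fold (SE 0.029, edgeR adjusted p = 3.69e-04). The other genes called were Rc3h1 and Rc3h2, higher, and Hnrnpd, lower.

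Chemokine receptor genes other than Ackr3 were low. Of 21 without Ackr3, 4 were tested and 0 were called by edgeR, with 1 at an unadjusted p under 0.05 (Ackr4, named after its value was seen), and DESeq2 and limma-voom called 0. Without a filter on low counts, or with 1 library left out, up to 2 were called (Ackr4 and Ccr9). The highest was Cxcr5, at 2.38 ± 0.385 CPM in WT and 2.29 ± 0.392 CPM in the knockout.

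Of 32 other chemokine genes, 9 were tested, 2 were higher and 2 lower (median log2 0.16). Besides Ccl8, Ccl25 rose 2.12-fold (SE 0.10, edgeR adjusted p = 3.05e-15), while Ccl9 fell 2.23-fold (SE 0.075, edgeR adjusted p = 2.15e-22) and Cx3cl1 1.33-fold (SE 0.08, edgeR adjusted p = 8.29e-06). Of 23 other cytokine genes, 13 were tested, 5 were higher and 4 lower (median log2 0.09). For either list, the share called over all tested genes was 61.4%.

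**Figure D5:**
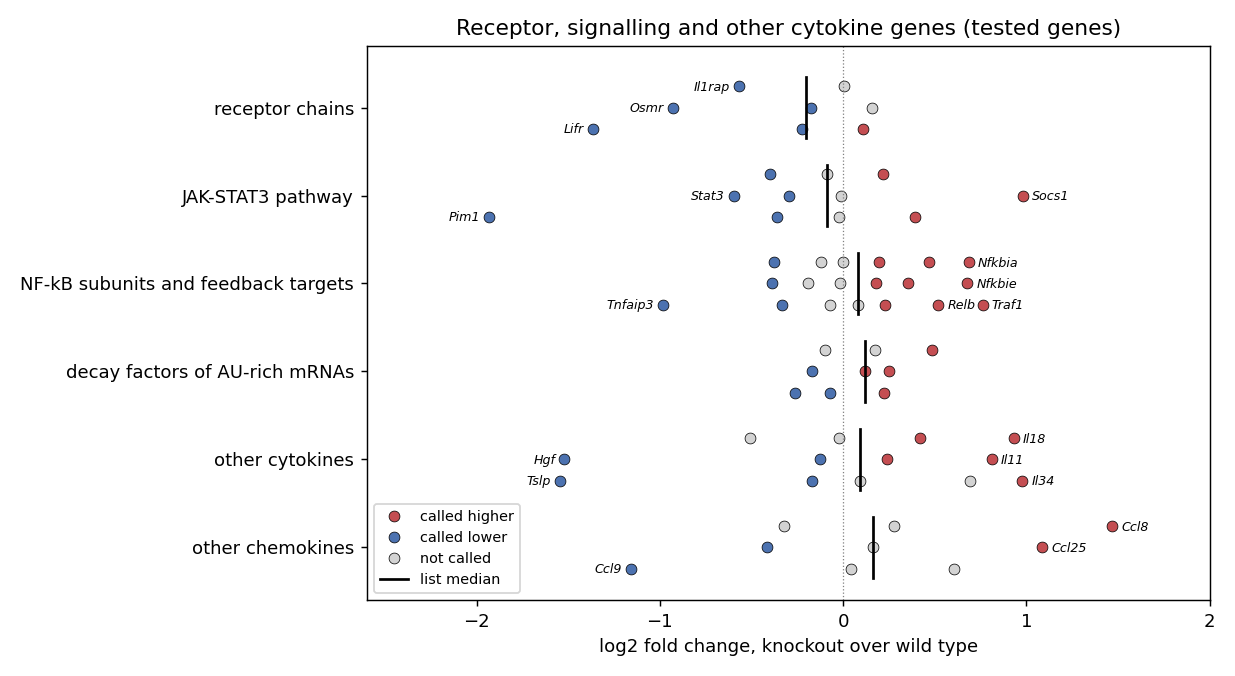
Log2 fold change, knockout over WT, of the tested genes in 6 lists. Points are genes, coloured by call and named where called and past 0.5 in either direction, and black ticks are list medians. Lifr lies at −1.37, Pim1 at −1.93 and Tnfaip3 at −0.98, while Socs1 lies at 0.98 and Nfkbia at 0.68.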

How the data were processed

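Stranded, rRNA-depleted libraries of 3 WT and 3 Ube3d knockout samples were sequenced. The deposited values are whole-number read counts per gene, and the submitters' processing notes name STAR 2.6.1d, featureCounts 1.6.3 and mm10 (GRCm38). Neither labels nor headers state the strand setting or how multi-mapped reads were treated. The exon length of each gene, from the same deposited table, served for levels per kb. A deposited table of transcription past gene ends was not used here.

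Genes were kept with edgeR's filterByExpr (minimum count 10, minimum total 15), scaled by TMM and tested with edgeR 4.0.16's robust quasi-likelihood test in R 4.3.3, with Benjamini-Hochberg adjustment over 12947 genes. The SE is the log2 fold change over the square root of F. Counts were also simulated for 12947 genes, with far fewer genes changed than were called in the real comparison. There, 82% of 50 genes changed 1.5-fold and 94% of 50 changed 2-fold were called, with 15 false calls. The shares were 90% of 50 at 3-fold and 98% of 50 at 4-fold. Ratios and sums were compared by exact permutation over libraries. DESeq2 1.42.0, limma 3.58.1, other filters and scalings, a replicate block and each library left out were alternatives. Replicates of a genotype differed beyond sampling noise in every pair, so none was counted once with another. Positions come from the exon coordinates in the deposited count table, shared transcript stretches from GENCODE M21 and promoters from RefSeq. The members and lists were chosen with earlier results of these data known. The genes named are the 10, Ube3d, their cluster neighbours and nearest tested genes, and, of each list, the receptors of the 10, the most abundant gene and up to 5 with the smallest adjusted p. Other names are said to be chosen later. A result of the cytokine list that the rule names is not reported here.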

Additional observations from a re-analysis of the deposited data

How the results depend on the processing

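The 5 lower calls of Cxcl12, Ccl2, Ccl7, Cxcl1 and Cxcl5 and the higher calls of Ackr3 and Csf1 held under all 14 alternatives. Of these, leaving out Rn45s and using total counts with no scaling factor were chosen after seeing the data. Rn45s held 7.28% to 8.91% of the counts in the WT libraries and 9.68% to 10.2% in the knockout libraries. Lif lost its call in 5 of the 14, with DESeq2 (log2 0.63) and with 1 of 4 libraries left out, and the cause was not tested. Genes called higher ranged from 3418 to 4025 and lower from 3609 to 4280. Without a filter on low counts, 1 chemokine receptor (Ccr9) and 2 fibroblast markers were called higher. With a filter at 1 CPM, fewer genes were tested, and 0 endothelial markers were higher and 1 macrophage marker was higher and 0 lower. DESeq2 also called 0 macrophage markers lower. Of the uncalled genes, Csf1r, Il1rl1, Ccl11, Ppbp and Cxcr5 changed sign, and Il6ra did not. Csf1r was at −0.0081 with no filter on low counts and −0.0039 with limma-voom. With 1 library left out, log2 values ran from −0.068 to 0.084 for Csf1r, −0.019 to 0.033 for Il1rl1, −0.020 to 0.48 for Ccl11, −0.13 to 0.25 for Ppbp and −0.17 to 0.084 for Cxcr5.

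Same-numbered libraries did not deviate together over the 12947 tested genes (correlations −0.029, −0.033 and −0.032), so the main fit used no pairing. The labels do not say whether the numbers pair the samples, and correlations over so few libraries cannot decide it. With a replicate block, 3840 genes were higher and 3976 lower, and no call among the 10 changed. Depth limits Il6, and exact tests of 3 libraries against 3 cannot go below p = 0.1.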

Other observations

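The Il1rl1 gene, which was not called, lies between neighbours that were. Il1rl2, 64.1 kb before it and the receptor gene of the interleukin-36 cytokines, went from 15.9 to 9.97 CPM (log2 −0.68, SE 0.084, edgeR adjusted p = 1.00e-10). Il18r1, the interleukin-18 receptor gene, begins 0.138 kb after it on the same strand. Il18r1 went from 0.603 to 1.14 CPM (log2 0.94, SE 0.31, edgeR adjusted p = 0.00611), where the lowest library of Il1rl1 was at 827 CPM.

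Among secreted factors outside the 10 genes, Hgf, hepatocyte growth factor, fell 2.87-fold (SE 0.047, edgeR adjusted p = 2.77e-40), from 74.9 ± 1.91 to 26.1 ± 0.603 CPM. Tslp, thymic stromal lymphopoietin, fell from 2.00 ± 0.210 to 0.674 ± 0.252 CPM (log2 −1.55, SE 0.26, edgeR adjusted p = 6.10e-07). Mif, the most abundant of the other cytokine genes, fell 1.09-fold (SE 0.033), from 186 ± 11.1 to 169.7 ± 5.27 CPM.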
